A study of Mus musculus with 63 samples.

Results

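Galectins are small proteins that bind beta-galactoside sugars, and 5 of their genes were followed here through intestinal tumours of the mouse: Lgals1, Lgals2, Lgals3, Lgals4 and Lgals9. They were taken by symbol from a table of 24766 genes, and all 5 had values high enough to be tested in every comparison. Small intestinal tumours came from 2 C57BL/6 mice that carried Villin-creERT2, 1 floxed Apc allele and the Confetti colour reporter (labelled Apchet), a female and a male. Villin-creERT2 acts in the intestinal epithelium, so recombination is directed to epithelial cells and not to the stromal and immune cells of a tumour. The mice were given 4 mg tamoxifen when over 8 weeks old and 200 mg per kg of the mutagen ENU 10 days later, and every library shares this genotype and treatment.

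Heterotypic tumours, which hold clones of different Confetti colour, were cut into their clones, and the bigger clone of a tumour is called major and the other minor (20 libraries of each, 10 per mouse). The remaining 23 libraries are undivided tumours (female 10, male 13). Mouse and sex coincide, and undivided tumours differ from clones in the dissection as well as in the tumour class, so neither pair can be told apart. The tumours of a mouse are not separate animals, and p-values measure the spread between tumours of these mice. Normalised counts summed to between 26140200 and 45909900 per library, and the ribosomal RNA gene Rn18s took a median of 6.19% of them in minor clones, 1.24% in major clones and 3.11% in undivided tumours. The epithelial genes Epcam and Krt8 were high in every library (Epcam 31000.8 to 74424.2, Krt8 47504.8 to 285603 normalised counts), as the labelled tissue would have.

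Galectins are made without a signal for secretion, leave cells by another route and bind sugar chains on glycoproteins outside the cell. Galectin-1 (Lgals1) and galectin-2 (Lgals2) have 1 sugar-binding domain and act as dimers. Galectin-3 (Lgals3) joins its domain to a long flexible tail through which it forms clusters. Galectin-4 (Lgals4) and galectin-9 (Lgals9) hold a pair of domains in 1 chain. In the gut, galectin-4 is made mainly by the epithelium, galectin-2 and galectin-3 also by epithelial cells, and galectin-1 is best known from stromal and endothelial cells and from T cells, whose survival it limits. Galectin-9 is induced by interferon and is a ligand of the T cell receptor TIM-3.

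The sugar-binding site is coded in a short stretch that carries codons of histidine, asparagine and arginine, then of tryptophan, glutamate and arginine, and these 6 codons are in capitals below. The stretches are shown because they code the feature that makes these genes a family, and because reads of 1 gene could be taken for another where genes are alike. They come from the Gencode M39 transcripts on GRCm39 and are written 5′ to 3′ on the coding strand.
Lgals1, chr15:78813876-78813965, plus strand: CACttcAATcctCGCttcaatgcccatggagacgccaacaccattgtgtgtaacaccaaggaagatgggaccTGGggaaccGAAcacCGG
Lgals2, chr15:78735503-78735580, minus strand: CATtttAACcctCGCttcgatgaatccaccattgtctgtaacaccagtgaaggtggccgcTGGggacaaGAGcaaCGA
Lgals3, chr14:47622099-47622185, plus strand: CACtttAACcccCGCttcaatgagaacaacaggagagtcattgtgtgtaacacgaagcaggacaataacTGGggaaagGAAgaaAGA
Lgals4, chr7:28540616-28540690, plus strand: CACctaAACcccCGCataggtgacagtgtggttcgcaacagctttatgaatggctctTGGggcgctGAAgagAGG
Lgals9, chr11:78863886-78863966, minus strand: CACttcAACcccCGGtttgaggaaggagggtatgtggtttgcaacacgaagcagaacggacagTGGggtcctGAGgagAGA

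Each stretch lay within 1 coding exon, exon 3 of 4 in Lgals1 and Lgals2, exon 5 of 6 in Lgals3, exon 9 of 10 in Lgals4 and exon 3 of 10 in Lgals9. Lgals9 held a second stretch in exon 9 and Lgals4 only the 1 in this spelling, which says nothing of the other domain. Aligned in pairs, these stretches were 51.7% (Lgals3 and Lgals4) to 67.0% (Lgals3 and Lgals9) identical in bases, and Lgals1 and Lgals2, neighbours on chromosome 15, were 66.7% identical. None of the 31-base words of the 5 coding sequences (378 in Lgals1, 363 in Lgals2, 760 in Lgals3, 951 in Lgals4 and 939 in Lgals9) occurred in a transcript of another gene. Lgals1 spans chr15:78810875-78814670 and overlaps Gm30368, a noncoding RNA on the other strand, and Lgals2 spans chr15:78735060-78739939 and overlaps Cdc42ep1 on the other strand. The library kit keeps the strand of the RNA. Lgals3 (chr14:47605208-47623624), Lgals4 (chr7:28531804-28541281) and Lgals9 (chr11:78853800-78875798) overlap no other gene.

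The members differed widely in level. Per kilobase of exon, with all annotated exons of a gene merged, the median in undivided tumours was 18932 normalised counts per kb for Lgals4, 13986 for Lgals2, 11483 for Lgals3, 6403 for Lgals9 and 797 for Lgals1. Lgals1 was lowest of the 5 in all 23 undivided tumours and all 20 major clones. In minor clones it was above Lgals9 in 3 of 20 libraries and above Lgals2 in 2. With the length of the canonical transcript in place of merged exons, Lgals1 was above Lgals9 in 6 minor and 3 major clones and in no undivided tumour. Lgals4 was above Lgals2 in 22 of 23 undivided tumours, 18 of 20 major clones and 19 of 20 minor clones. By canonical length it was above Lgals2 in all 23, 20 and 20. The place of Lgals3 relative to these 2 was not firm. Lgals3 was above Lgals2 in 12 of 23 undivided tumours, or in 16 by canonical length, and Lgals4 was above Lgals3 in 17 of 23, or in 13 by canonical length. Spread also differed. Over undivided tumours the SD of the log2 level was 1.11 for Lgals1 and 1.07 for Lgals3, against 0.48 for Lgals2, 0.45 for Lgals9 and 0.36 for Lgals4.

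**Figure D1:**
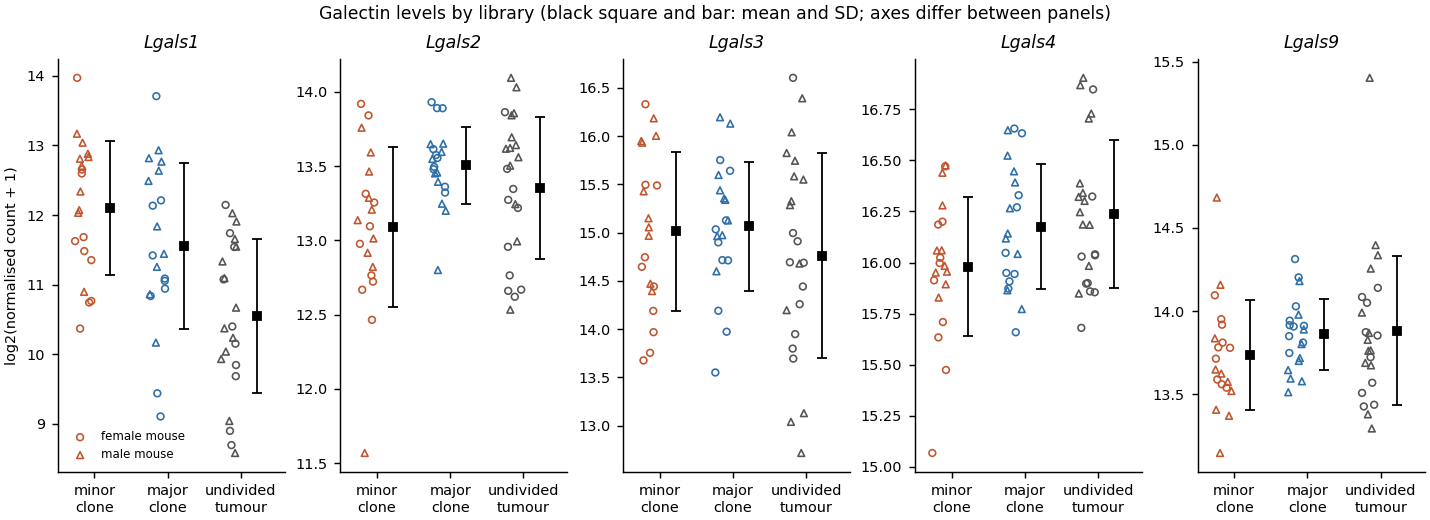
Level of each member, as log2(normalised count + 1), in 20 minor clones, 20 major clones and 23 undivided tumours. Circles are tumours of the female and triangles of the male mouse, and black squares with bars are the mean and SD of a group. The mean of Lgals1 steps down from minor clones (12.10) to major clones (11.56) and undivided tumours (10.55). The groups overlap for every member, Lgals1 included, and none lies wholly above or below another.

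Lgals1 was lower in undivided tumours than in minor clones. In minor clones it ran from 1320 to 16062 normalised counts (median 4736), in major clones from 550 to 13381 (median 2759) and in undivided tumours from 382 to 4526 (median 1348). With the mice pooled, every one of the 23 undivided tumours lay below the median of the minor clones and 10 lay below the lowest of them. Above the highest undivided tumour lay 10 of 20 minor clones. Within mice, 8 of 10 undivided tumours of the female and 13 of 13 of the male lay below the minor clone median of that mouse. Above the highest undivided tumour of the same mouse lay 3 of 10 female and 9 of 10 male minor clones. The values of the 2 groups overlapped between 1320 and 4526. Against minor clones Lgals1 was 3.0-fold lower in undivided tumours (95% interval 1.96 to 4.58; log2 fold change -1.58, SE 0.30; limma, Benjamini-Hochberg adjusted p = 0.00904), rank 6 by p among 16491 genes.

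Of all genes tested in undivided tumours against minor clones, 3.7% were called at an adjusted p under 0.05 (2.27% higher and 1.43% lower). Of the called genes 61.5% were higher, but 36.7% when libraries were scaled to the same sum. Lgals1 was the 1 member of 5 called. Within mice, Lgals1 was -1.31 in the female (log2; adjusted p = 0.492) and -1.83 in the male (adjusted p = 0.0187). The test of the difference between mice gave -0.52 for Lgals1 (adjusted p = 0.75), and it passed for none of the 5 members. In the female mouse alone limma called 0 of 16372 genes, with 1428 at an unadjusted p under 0.05. With the 20 undivided tumours numbered 1 to 10 in each mouse, a choice made after seeing the data, the Lgals1 log2 fold change was -1.57 (adjusted p = 0.0123).

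Major clones lay between. The Lgals1 level of undivided tumours was 2.06-fold below that of major clones, which did not pass the test (95% interval 1.29 to 3.28; log2 -1.04, SE 0.33; adjusted p = 0.269), and 16 of 23 were below the median of the major clones. This comparison called only 2 of 16510 genes, 0.0121% (0.00606% in each direction), with 1973 at an unadjusted p under 0.05, and none of the members was among them.

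Within tumours, Lgals1 was higher in the minor clone in 13 of 20. The mean log2 difference, major minus minor, was -0.54 (SE 0.22; adjusted p = 0.152), and 1.14% of genes were called in this comparison but none of the 5 members. Without the tumour as a block the same difference had an adjusted p of 0.403, and 1 gene was called in place of 188. Tumour F26 held the largest gap, with 550 normalised counts in its major and 6442 in its minor clone (log2 difference -3.55). Rn18s took 15.6% of the F26 minor clone, the highest of the 40 clones, and 1.23% of its major clone, and it was higher in the minor clone in 15 of 20 tumours. Its part in the Lgals1 difference was not tested. Without F26 the mean difference was -0.39. Both clones of F22 had the highest Lgals1 of their class (13381 and 16062), and this tumour's clones are labelled with different gut segments, SI20 for the major and SI10 for the minor clone.

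**Figure D2:**
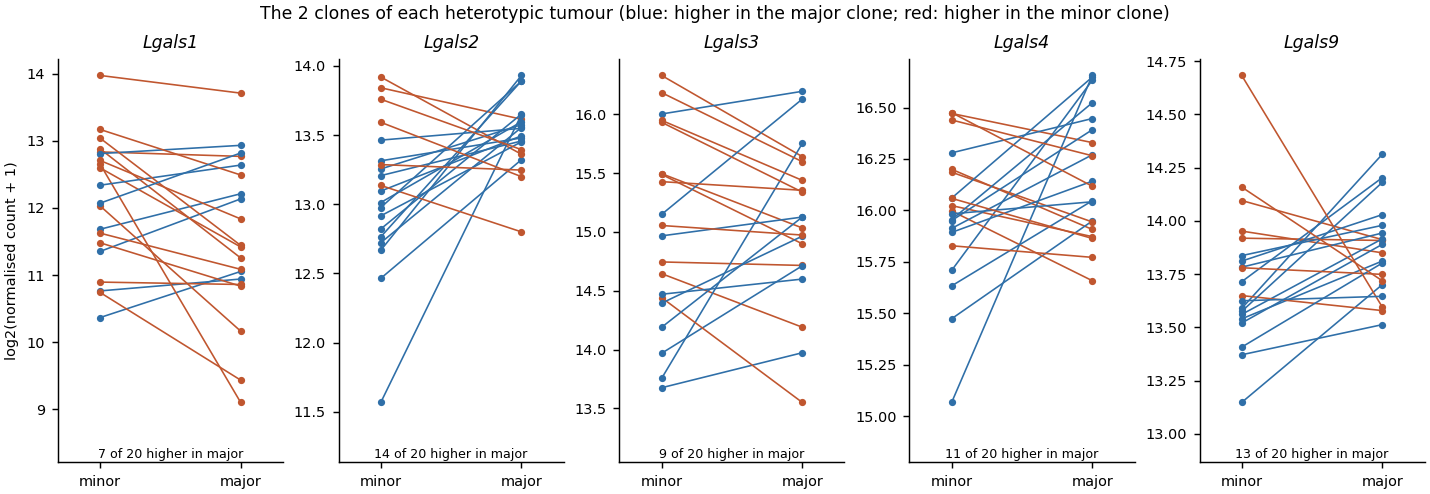
The 2 clones of each of 20 heterotypic tumours joined by a line, as log2(normalised count + 1), with blue lines for tumours higher in the major and red lines for tumours higher in the minor clone. Lgals1 is higher in the major clone in 7 of 20 tumours and Lgals2 in 14 of 20.

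Vim codes vimentin, the intermediate filament of stromal and other mesenchymal cells, and it did not follow Lgals1. Vim ran from 479 to 5089 normalised counts in minor clones (median 1003), 455 to 4893 in major clones (median 1571) and 242 to 11197 in undivided tumours (median 1507). Its log2 fold change was 0.53 for major minus minor clones (SE 0.18, adjusted p = 0.0976), 0.41 for undivided tumours minus minor clones (SE 0.29, adjusted p = 0.459) and -0.13 for undivided tumours minus major clones, so that none passed the test. The signs were opposite to those of Lgals1 in both comparisons with minor clones.

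Taken as a ratio within a library, Lgals1 to Vim had a median of 5.78 in minor clones, 2.48 in major clones and 1.10 in undivided tumours. The log2 ratio fell by 1.97 from minor clones to undivided tumours (two-sided permutation test within mice, adjusted p = 0.00063 over 3 comparisons; below the minor clone median in 22 of 23 undivided tumours). It fell by 1.07 from minor to major clones (permutation test by change of sign within tumours, adjusted p = 0.0155; lower in 13 of 20 major clones). Undivided tumours and major clones differed by -0.90, which did not pass (adjusted permutation p = 0.106). The ratio was chosen after the values of both genes were seen.

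Across the 23 undivided tumours, with the mean of each mouse removed, Lgals1 and Vim had a Pearson r of -0.11 (permutation p = 0.621, adjusted over 88 p-values 0.697) and a Spearman rho of -0.12 (permutation p = 0.599). Within mice r was -0.50 in the female and 0.22 in the male. Across the 20 clone differences r was -0.53 (permutation p = 0.0152, adjusted p = 0.0352) and rho -0.47 (permutation p = 0.0355), and without F26 and M29, the tumours farthest from the median, r was -0.34. Within mice r was -0.53 in the female and -0.54 in the male.

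**Figure D3:**
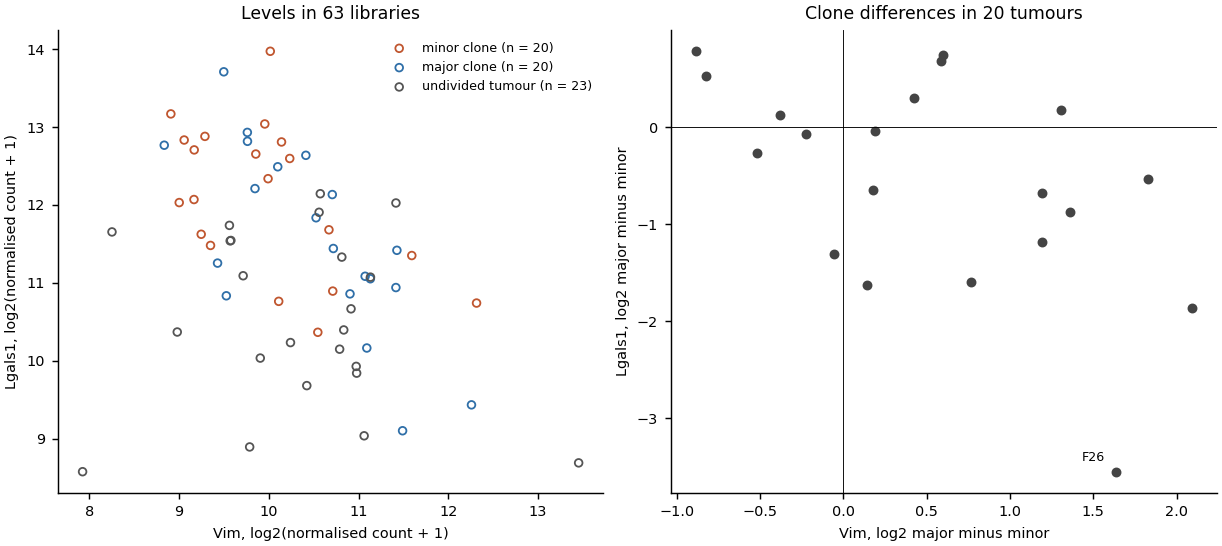
Left, Lgals1 against Vim as log2(normalised count + 1) in 20 minor clones, 20 major clones and 23 undivided tumours. Right, the major minus minor log2 differences of both genes in 20 tumours, with lines at 0 and tumour F26 named, where r is -0.53.

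Other cells that could carry Lgals1 were measured by marker lists. In bulk tissue, fewer cells of a type and less RNA per cell cannot be told apart. The fibroblast and muscle list of 17 genes had none called in either direction in undivided tumours against minor clones, with 7 of 17 positive, and its summed level had medians of 19690 in minor clones (7098 to 42956), 23060 in major clones (9528 to 44321) and 17513 in undivided tumours (7832 to 40227). Among its genes Pdgfra, a receptor of fibroblasts, had a log2 fold change of -0.86 (adjusted p = 0.075) and Thy1, a surface protein, 0.61 (adjusted p = 0.0995). Lum was at 0 in at least 1 undivided tumour. Lgals1 and the mean of this list had an r of 0.19 in undivided tumours (permutation p = 0.378) and of -0.11 across clone differences (permutation p = 0.634).

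The summed level of the endothelial list had medians in the same order as those of Lgals1. Its 10 genes summed to a median of 9760 in minor clones (2330 to 16874), 8230 in major clones (1844 to 16589) and 5813 in undivided tumours (874 to 12970), with Cldn5 at 0 in at least 1 undivided tumour. Flt1, a receptor of VEGF, was lower in undivided tumours than in minor clones (log2 -1.48, SE 0.30, adjusted p = 0.00985), as was Cdh5, the cadherin of vessel walls (-1.12, SE 0.33, adjusted p = 0.0473). With the undivided tumours numbered 1 to 10 only, Flt1 had an adjusted p of 0.0145 and Cdh5 of 0.0737. Over 13 alternatives Flt1 was called in 12 and Cdh5 in 5. Tek had -1.18 (adjusted p = 0.0827) and Esam -0.45 (adjusted p = 0.13). Of the 10 endothelial genes 2 were called lower, against 1.43% of all genes, and 3 were positive. For major minus minor clones 5 of the 10 were positive, with a median of 0.0008 and none called. The part of endothelial cells in the Lgals1 result was not tested. The macrophage and neutrophil list of 14 genes had none called, 11 positive, and medians of 5180, 5666 and 5868 in minor clones, major clones and undivided tumours. Across clone differences its mean had an r of -0.45 with Lgals1 (permutation p = 0.0455, adjusted p = 0.0801; rho -0.53, adjusted p = 0.0396). S100a8 was at 0 in at least 1 undivided tumour.

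T cells are a target of galectin-1 and galectin-9, and 4 of 12 T and NK cell genes were called higher in undivided tumours than in minor clones, against 2.27% of all genes: the granzymes Gzma (log2 0.92, SE 0.26, adjusted p = 0.0366) and Gzmb (0.85, SE 0.25, adjusted p = 0.042) and the T cell receptor chains Cd3e (0.94, SE 0.28, adjusted p = 0.0437) and Cd3g (0.83, SE 0.25, adjusted p = 0.0489). All 12 had a positive fold change, with a median of 0.81. Over 13 alternatives Gzma was called in 9, Gzmb and Cd3e in 6 and Cd3g in 3. With libraries scaled to the same sum 1 of 12 was called, and with the undivided tumours numbered 1 to 10 only none was, Gzma then having an adjusted p of 0.0535. Between major and minor clones none of the 12 was called. Their part in the Lgals1 result was not tested.

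**Figure D4:**
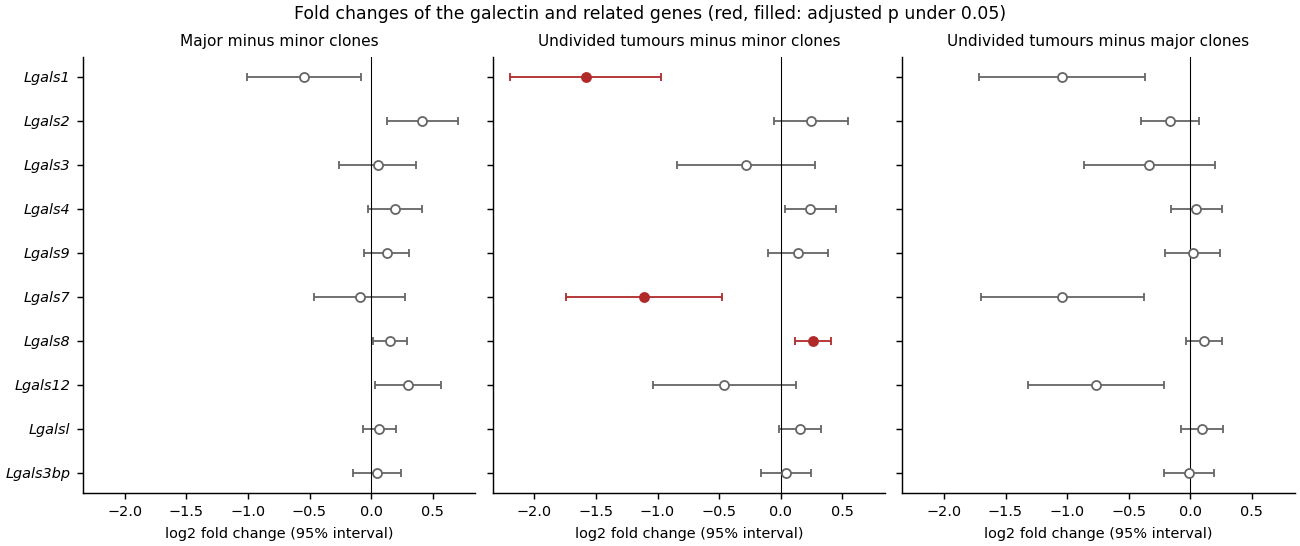
Log2 fold changes with 95% intervals from limma for the 5 members, 4 other galectin or galectin-like genes and Lgals3bp in the comparisons of major with minor clones, undivided tumours with minor clones and undivided tumours with major clones. Filled red points have an adjusted p under 0.05 over all genes, and these are Lgals1 (-1.58), Lgals7 (-1.11) and Lgals8 (0.26) in undivided tumours against minor clones.

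Lgals2 did not pass the test in any comparison. It ran from 3035 to 15499 normalised counts in minor clones (median 8877), 7133 to 15621 in major clones (median 11764) and 5927 to 17502 in undivided tumours (median 11441). The values of major clones were the most compact, and those of minor clones reached lowest. The log2 difference of major minus minor was 0.42 (SE 0.14, adjusted p = 0.0907), and the major clone was higher in 14 of 20 tumours. Tumour M19 showed the largest gap, 12841 in its major against 3035 in its minor clone, where Rn18s took 14.2%.

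Against undivided tumours, Lgals2 gave 0.25 relative to minor clones (SE 0.15, adjusted p = 0.365) and -0.16 relative to major clones (SE 0.12, adjusted p = 0.558). The latter differed in sign between mice, -0.53 in the female and 0.16 in the male, and the test of this difference gave 0.68 (male minus female, unadjusted p = 0.00251, adjusted p = 0.256), which is not past the threshold over all genes.

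Lgals3 varied widely within each group, and no difference between groups passed the test. It ran from 13086 to 82372 normalised counts in minor clones (median 33023), 12001 to 75014 in major clones (median 34655) and 6732 to 99557 in undivided tumours (median 26479). The log2 fold change was 0.05 for major minus minor clones (95% interval -0.26 to 0.36, adjusted p = 0.868), -0.28 for undivided tumours minus minor clones (-0.84 to 0.28, adjusted p = 0.634) and -0.33 for undivided tumours minus major clones (-0.86 to 0.20, adjusted p = 0.595). The 3 lowest values of all were undivided tumours M15 (8962), M17 (8417) and M18 (6732), which also held the lowest Krt8 (52616, 47505 and 64171). Rn18s took 10.96%, 14.4% and 19.3% of these libraries, against a median of 3.11% in undivided tumours, and its part in the Lgals3 values was not tested. Without these 3 the difference from minor clones was 0.02 and that from major clones -0.03.

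Lgals4, the member with the highest median per kilobase of merged exons, had the smallest SD of the members in undivided tumours. It ran from 34313 to 91120 normalised counts in minor clones (median 65102), 51711 to 103284 in major clones (median 71709) and 52486 to 122720 in undivided tumours (median 74553). Below the lowest undivided tumour lay the minor clones of F20 (45491), F26 (34313) and F28 (50819) and the major clone of F27 (51711), and 5 of 23 undivided tumours lay above the highest clone of either class. The log2 fold change was 0.19 for major minus minor clones (SE 0.11, adjusted p = 0.289; higher in 11 of 20 major clones), 0.24 for undivided tumours minus minor clones (SE 0.10, adjusted p = 0.176) and 0.05 for undivided tumours minus major clones (SE 0.10, adjusted p = 0.858). None passed the test.

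Lgals9 did not pass the test in any comparison. It ran from 9072 to 26292 normalised counts in minor clones (median 13141), 11686 to 20352 in major clones (median 14970) and 10048 to 43302 in undivided tumours (median 14534). The log2 fold changes were 0.13 for major minus minor clones (SE 0.09, adjusted p = 0.408; higher in 13 of 20 major clones), 0.14 for undivided tumours minus minor clones (SE 0.12, adjusted p = 0.559) and 0.02 for undivided tumours minus major clones (SE 0.11, adjusted p = 0.949). Undivided tumour M2, at 43302, stood above every other library, the next being the minor clone of M29 at 26292.

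The epithelial members followed epithelial genes. Across the 23 undivided tumours, with mouse means removed, Lgals4 had a Pearson r of 0.75 with Epcam (permutation p = 2e-05; Spearman rho 0.81) and of 0.81 with the mean of the epithelium list of 12 genes (permutation p = 1e-05, the smallest the permutations can give; rho 0.77). Without the 2 tumours farthest from the median these were 0.72 and 0.72. Across clone differences Lgals4 gave 0.84 with the epithelium list (permutation p = 4e-05; 0.65 without the farthest 2) and 0.64 with Epcam (permutation p = 0.00472; 0.31 without the farthest 2, so that the latter rests largely on these). Within the male mouse the clone differences of Lgals4 and Epcam gave 0.22, against 0.77 in the female. The epithelium list includes Epcam and Krt8 and no galectin.

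Lgals3 and the epithelium list had an r of 0.96 in undivided tumours (permutation p = 1e-05; rho 0.94; 0.94 without M17 and M18; 0.89 in the female and 0.98 in the male) and 0.82 across clone differences (permutation p = 5e-05; 0.61 without the farthest 2). With the macrophage and neutrophil list, cells that also make galectin-3, Lgals3 gave 0.31 in undivided tumours (permutation p = 0.182) and 0.12 across clone differences (permutation p = 0.62). Lgals3 and Lgals4 had an r of 0.76 with each other in undivided tumours (permutation p = 5e-05) and 0.80 across clone differences (permutation p = 1e-04).

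Lgals2 was related to the genes of absorptive cells. Its r with the enterocyte list of 14 genes was 0.63 in undivided tumours (permutation p = 0.00169, adjusted p = 0.0062; 0.67 in the female and 0.61 in the male) and 0.68 across clone differences (permutation p = 0.00098, adjusted p = 0.00431; 0.65 and 0.79). With the epithelium list it was 0.19 in undivided tumours (permutation p = 0.405), but 0.68 in the female and -0.03 in the male. Across clone differences the r of Lgals2 with that list was 0.49 (permutation p = 0.0299, adjusted p = 0.0612). Lgals4 also followed the enterocyte list, at 0.55 in undivided tumours (adjusted permutation p = 0.0202) and 0.68 across clone differences (adjusted permutation p = 0.00362).

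Lgals9 followed the interferon response list of 18 genes, with an r of 0.71 in undivided tumours (permutation p = 0.00265, adjusted p = 0.00897; rho 0.50). Tumour M2 was high in both, and without M2 and M15 r was 0.47. Within mice it was 0.62 in the female and 0.73 in the male. Across clone differences r was 0.62 (adjusted permutation p = 0.0245) but 0.16 in the female and 0.75 in the male, and rho was 0.35 (permutation p = 0.135). Lgals9 and the epithelium list gave 0.56 in undivided tumours (adjusted permutation p = 0.0272) and 0.45 across clone differences (adjusted permutation p = 0.0916). With the undivided tumours numbered 1 to 10 only, the former was 0.34.

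**Figure D5:**
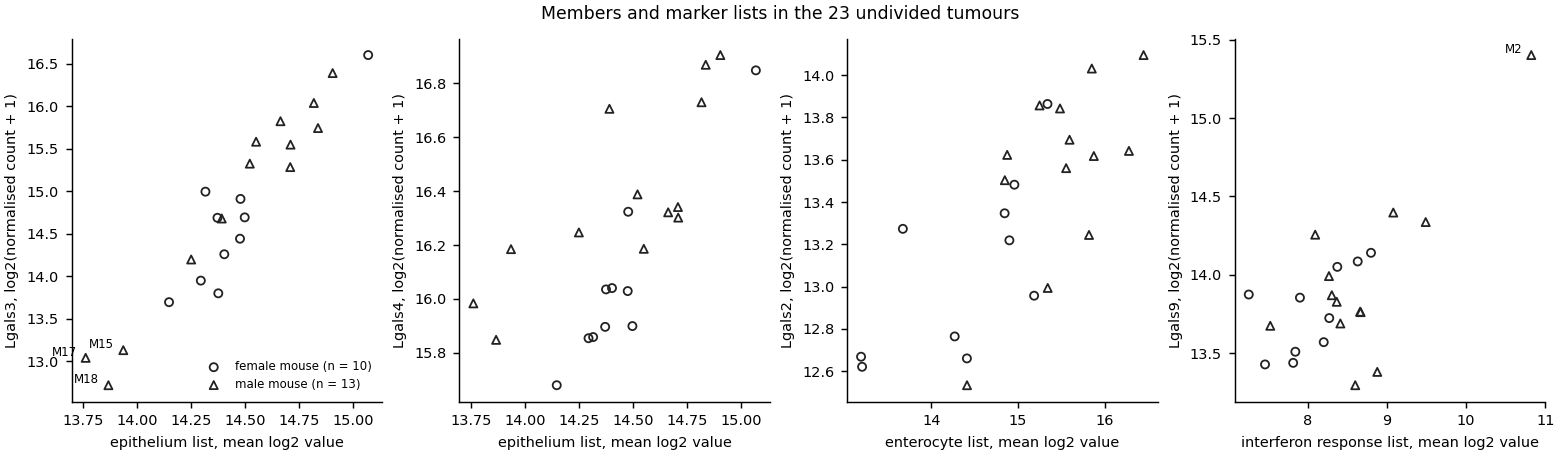
Lgals3 and Lgals4 against the epithelium list, Lgals2 against the enterocyte list and Lgals9 against the interferon response list in 23 undivided tumours, all as log2 levels. Circles are the female and triangles the male mouse. Tumours M15, M17 and M18 lie at the low end for Lgals3, and M2 at the high end for Lgals9.

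No relation of Lgals1 to another member passed in undivided tumours. Its r there was 0.05 with Lgals4, 0.09 with Lgals3, 0.17 with Lgals9 and 0.24 with Lgals2 (the lowest permutation p, 0.282). Such a low r was not particular to Lgals1, as Lgals2 and Lgals3 gave 0.12 (permutation p = 0.604). Across clone differences the r of Lgals1 was -0.07 with Lgals9, -0.38 with Lgals2, -0.57 with Lgals3 (adjusted permutation p = 0.0253, rho -0.26) and -0.52 with Lgals4 (adjusted permutation p = 0.0449, rho -0.26). The last 2 were -0.31 and -0.27 without the 2 tumours farthest from the median, so these rest on F26 and M29. Lgals2 and Lgals4 gave 0.66 across clone differences (adjusted permutation p = 0.00616), and Lgals2 and Lgals9 0.69 (adjusted permutation p = 0.00503).

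The genes most like each member in undivided tumours, by Pearson r of log2 values over the 23 tumours with mouse means removed and among 16511 genes, are given as a description. Values over the 40 clones had the means of mouse and class removed. For Lgals1 they were Dkkl1 (0.74), Pdyn (0.71), Rbp7 (0.69), Gm9920 (0.67) and Hspa12a (0.64), and over the 40 clones the r of Dkkl1 and Pdyn was 0.50 and 0.66 but that of Gm9920 and Hspa12a was negative, -0.19 and -0.18. For Lgals3 they were Anxa2 (0.97), Krt8 (0.97), Serpinb6a (0.96), Rab27b (0.95) and Spag9 (0.95), all at 0.77 or above over the clones, with Krt8 at 0.94. Krt8 codes keratin 8 and Anxa2 an annexin of the cell membrane. For Lgals4 they were Paqr4 (0.89), Chmp1a (0.89), Txn1 (0.89), S100a10 (0.88) and Ap2m1 (0.88). For Lgals2 they were Mfsd6l (0.84), Gstp1 (0.83), Abcg5 (0.82), Abcg8 (0.82) and Pip5k1b (0.80), of which Abcg5 and Abcg8 form the sterol exporter of enterocytes. For Lgals9 they were Prdx6 (0.87), Bak1 (0.87), Tmem253 (0.87), Lypd8 (0.86) and Ckmt1 (0.86).

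Of related genes, 4 other galectin or galectin-like genes and Lgals3bp, a galectin-3 binding glycoprotein, were in the table and tested. In undivided tumours against minor clones 1 of these 5 was called lower and 1 higher, against 1.43% and 2.27% of all genes. Lgals7 was lower in undivided tumours than in minor clones (log2 -1.11, SE 0.31, adjusted p = 0.0371) at low levels, 1.58 to 78.0 normalised counts against 34.9 to 125. Lgals8 was higher (log2 0.26, SE 0.07, adjusted p = 0.0386), with medians of 1356 and 1112, and 70 of its 921 coding 31-base words also occur in Gm6149. With libraries scaled to the same sum Lgals8 had 0.17 and was no longer called (adjusted p = 0.109). Of 13 alternatives, Lgals7 was called in 8 and Lgals8 in 7. Lgals12, Lgalsl and Lgals3bp had none called in any comparison of clones and undivided tumours. Lgals7 and Lgals12 were also lower in undivided tumours than in major clones without passing the test, -1.04 (adjusted p = 0.266) and -0.76 (adjusted p = 0.326).

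Galectins bind sugar chains that other enzymes build. Of 31 glycan enzyme genes 30 were tested, and 3 were higher in major than in minor clones, against 0.67% of all genes. They were Mgat5 (log2 0.35, SE 0.06, adjusted p = 0.0197) and Mgat4a (0.34, SE 0.07, adjusted p = 0.0266), which add branches to N-linked chains, and B3gnt5 (0.75, SE 0.17, adjusted p = 0.0392), which starts lacto-series glycolipids. Over 11 alternatives Mgat5 and Mgat4a were each called in 9 and B3gnt5 in 7. Mgat3 had 0.38 (adjusted p = 0.0613). In undivided tumours none was called against minor clones (2 lower with libraries scaled to the same sum), where B4galt2 had -0.42 (adjusted p = 0.0561), or against major clones. Of 25 galectin partners, none was called between the clones. In undivided tumours against minor clones 1 of the 25 was higher and 1 lower, against 2.27% and 1.43% of all genes. Mertk, a receptor for uptake of dying cells, was higher (0.97, SE 0.26, adjusted p = 0.0305). Itga5, a fibronectin receptor chain, was lower (-0.68, SE 0.20, adjusted p = 0.041). Mertk was called in 10 of 13 alternatives and Itga5 in 6 of 13, Itga5 having an adjusted p of 0.0766 with the undivided tumours numbered 1 to 10 only.

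Of the lists related to Lgals2, Lgals4 and Lgals9, the enterocyte list had the most genes called between groups. In undivided tumours against minor clones 4 of its 14 genes were higher, against 2.27% of all genes. Among them were the sugar transporter Slc5a1 (1.20, SE 0.26, adjusted p = 0.0107), the disaccharidase Sis (1.17, SE 0.28, adjusted p = 0.0169) and the peptide transporter Slc15a1 (0.86, SE 0.25, adjusted p = 0.0393). The enterocyte list had a median of 0.58 against -0.01 for all genes. Of 12 epithelium genes 1, the tight junction gene Cldn7, was higher (0.28, SE 0.08, adjusted p = 0.0441). Of 18 interferon response genes 2 were higher, Irf1 (0.51, SE 0.12, adjusted p = 0.0158) and Psmb8 (0.76, SE 0.19, adjusted p = 0.0206), and 17 were positive. Between clones, 1 enterocyte gene was higher in major clones, Sis (1.10, SE 0.26, adjusted p = 0.0439), against 0.67% of all genes, and none of the epithelium or interferon lists. Between clones Sis was called in 5 of 11 alternatives. With libraries scaled to the same sum Cldn7 had an adjusted p of 0.0833 in undivided tumours against minor clones. Over the 13 alternatives of that comparison Slc5a1, Sis, Irf1 and Psmb8 were each called in 12, all but the female mouse alone, Slc15a1 in 7 and Cldn7 in 4. The enterocyte list there had 2 genes called in SI10 and SI20 only, with segment as a covariate or with no covariate.

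The lists of other cells were described by their counts. Of 8 goblet cell genes 2 were higher in major than in minor clones, against 0.67% of all genes. They were Spink4 (0.63, adjusted p = 0.0238), called in 8 of 11 alternatives, and the secreted Clca1 (0.70, adjusted p = 0.0465), called in 5 of 11. Clca1 alone of the 8 was higher in undivided tumours than in minor clones (0.97, adjusted p = 0.0263), against 2.27% of all genes, and was called in 10 of 13 alternatives. Of 8 Paneth, 8 stem and 6 tested B and plasma cell genes none was called in either comparison. Against major clones none of the lists had a gene called in undivided tumours.

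By gut segment no member was called. SI10 against SI20 called 0.17% of genes in undivided tumours and 0.28% in divided tumours, taking the mean of the 2 clones. In the lower direction these were 0.0182% and 0.183%, and in the higher 0.151% and 0.0973%. Lgals3 was lower in SI10 in both, at -0.37 (adjusted p = 0.847) and -0.50 (adjusted p = 0.375), without passing. Lgals1 had -0.69 in undivided (adjusted p = 0.717) and 0.11 in divided tumours (adjusted p = 0.891).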

How the data were processed

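Bulk RNA sequencing of 63 libraries was analysed: 20 major clones, 20 minor clones and 23 undivided tumours. The values are a signal per gene, the normalised counts deposited by the authors. The paper's methods and the submitters' processing notes give FastQC 0.11.9, Trimmomatic 0.39, Salmon 1.9.0 against Gencode transcripts, and DESeq2, with GRCm39, STAR 2.7.7a and Picard 2.27.3 for quality control. The values are not whole numbers, whole reads could not be recovered, and the depth of a library is unknown, so no counting interval is given. How libraries were scaled is not given in the sources used here beyond the name of the values and the use of DESeq2.

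Which clone is major or minor is not in the sample labels and was taken from the paper's source data, beside the sample titles. The 2 clones of a tumour were paired by tumour number. Same-tumour clones correlated at a median of 0.265 across genes after removal of class means (0.0282 to 0.620), above 0.1 in 17 of 20 tumours, against -0.0198 for different tumours. The paper gives fewer monoclonal tumours than the undivided tumours labelled here, so all 23 were used.

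Genes with a mean of at least 10 were tested on log2(value + 1) with limma 3.58.1 (eBayes with trend, R 4.3.3), with tumour blocks where clones were compared with each other and with mouse as covariate elsewhere. Adjusted p-values are Benjamini-Hochberg over all genes, with a threshold of 0.05. A fold change on this scale understates that of low values. Relations used 100000 two-sided permutations (within mice for undivided tumours), 44 relations and 88 p-values. Ratios of Lgals1 to Vim were permuted within tumours or mice. Python 3.11.15, numpy 2.4.6, scipy 1.17.1 and pandas were used, and each test was tried on simulated data.

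Named genes are the 5 members, other galectins and Lgals3bp, Vim, Epcam, up to 4 genes of each list with the smallest p, and the 5 genes most like each member. The members and the 15 lists, 191 genes, were chosen with earlier results of these data known. A called gene of the lists is not reported by name here. Alternatives were the pseudocount (0.1 and 5), the filter (none, or a minimum mean of 50), quantile or same-sum scaling, no trend, each mouse alone, segments, covariates, no block, a signed-rank test, and leaving out each tumour or library.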

Additional observations from a re-analysis of the deposited data

Results flagged for a closer look

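Among 55 groups of 4 to 10 values per member and mouse, 6 held a value far from the others by Dixon's test, which chance alone gives in about 1 of 20 groups. All values here are log2(normalised count + 1) or differences on that scale. For Lgals1, the minor clone of M20 was the lowest of the male minor clones at 10.90 (median 12.76), and F26 had the lowest difference of major minus minor clone in the female mouse at -3.55 (median -0.40). For Lgals2, the minor clone of M19 was the lowest male minor clone at 11.57 (median 13.17), so that M19 also had the highest clone difference of the male mouse at 2.08 (median 0.17), and the major clone of M22 was the lowest male major clone at 12.80 (median 13.45). For Lgals3, F9 was the highest undivided tumour of the female mouse at 16.60 (median 14.56). The difference in Lgals2 between undivided tumours and major clones was larger in the male than in the female mouse by 0.68 (limma, unadjusted p = 0.00251, adjusted p = 0.256), where the female gave -0.53 and the male 0.16. It was picked out by its unadjusted p and did not pass over all genes.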

How the results depend on the processing

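Lgals1 in undivided tumours against minor clones had the same direction under 13 of 13 alternatives (-1.83 to -1.31) and was called in 12 of them, the exception being the female mouse alone at -1.31 (adjusted p = 0.492). It was called in all 43 fits that left out 1 library (-1.68 to -1.48). No other member was called in a main comparison or in any alternative. The signs that turned belonged to uncalled values, and the cause was not tested. With quantile normalization they were Lgals3 in major minus minor clones (-0.00586), Lgals4 and Lgals9 in undivided tumours minus major clones (-0.0339 and -0.0424) and Lgals9 between segments of undivided tumours (-0.00826). With libraries scaled to the same sum they were Lgals4 and Lgals9 in undivided tumours minus major clones (-0.0406 and -0.0694) and Lgals9 between segments (-0.0379), and this scaling moved the median of all genes to -0.11 in undivided tumours minus minor clones. In the female mouse alone they were Lgals2 and Lgals9 in undivided tumours minus minor clones (-0.0169 and -0.00736), Lgals4 and Lgals9 in undivided tumours minus major clones (-0.0804 and -0.196) and Lgals2 between segments of undivided tumours (0.0020). In the male mouse alone they were Lgals2 in undivided tumours minus major clones (0.157), Lgals4 between segments of undivided tumours (0.0173) and Lgals1 between segments of divided tumours (-0.234). Lgals3 gave -0.0516 as the median clone difference of the exact signed-rank test and 0.0193 in the 20 undivided tumours numbered 1 to 10 minus minor clones, a choice made after seeing the data. Leaving out 1 tumour or library turned Lgals3 in major minus minor clones (without F26; -0.0501 to 0.102), Lgals9 in undivided tumours minus major clones (without M2 or M7; -0.0453 to 0.0463), Lgals9 between segments of undivided tumours (without M2; -0.0569 to 0.135) and Lgals1 between segments of divided tumours (without F19, F27 or M29; -0.0229 to 0.359). Leaving out 1 library also moved uncalled values by over 1.5 times without a change of sign: Lgals4 in major minus minor clones from 0.19 to 0.12 (without F26), Lgals9 there from 0.13 to 0.19 (without M29), and in undivided tumours minus minor clones Lgals2 from 0.25 to 0.15 (without M19), Lgals3 from -0.28 to -0.18 (without M18) and Lgals9 from 0.14 to 0.08 (without M2). The values near 0 of Lgals3 between clones and of Lgals4 (0.01 to 0.08) and Lgals9 in undivided tumours minus major clones moved as much without many of the libraries. Counts over all genes moved more. Without the replicate block 1 gene was called between clones in place of 188 and Lgals1 stayed at -0.54 (adjusted p = 0.403). Between clones 85 genes were called with no filter, 366 with quantile normalization, 292 with the same sum, 89 without the trend, 86 in SI10 and SI20 only, 33 in the male mouse, 0 in the female (1213 at an unadjusted p under 0.05) and 25 to 859 without 1 tumour. In undivided tumours against minor clones 610 became 325 in SI10 and SI20 only, 367 with segment as a covariate, 328 with no covariate and 0 in the female mouse. Depth per library is unknown, so its limits could not be given.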
